A study of Homo sapiens with 24 samples.

Results

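The comparison described here set T-47D cells transfected with P-Rex1 RNAi #2 against T-47D cells transfected with P-Rex1 RNAi #1, both without heregulin (HRG). Its members are the 3 arrays titled P-REX1 RNAi #2 and the 3 arrays titled P-REX1 RNAi #1 that received vehicle, 6 of the 24 arrays of the study, chosen by their titles. T-47D cells were derived from a breast carcinoma and express the estrogen receptor and other luminal genes. Both groups were transiently transfected with 1 small interfering RNA duplex against PREX1, deprived of serum 16 h later, kept without it for 48 h, and given PBS as vehicle for 6 h. The control groups without HRG were parental cells, which received no duplex, and NTC cells, which received a non-targeting duplex, with 3 arrays each. The 12 arrays with HRG (20 ng/ml, 6 h) comprised the same 4 kinds of cells, and the labels do not say whether a culture with HRG and its partner without HRG came from 1 transfection. Silencing was transient, and each group stands for a single duplex.

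P-Rex1, the product of PREX1, is an exchange factor that loads GTP onto Rac GTPases, the switches that drive membrane ruffling and cell movement. An RNAi duplex directs the RNA-induced silencing complex to transcripts that match its guide strand, and a short seed at the start of the guide can also bind partly matching transcripts. For this reason silencing experiments commonly use separate duplexes against 1 target, and a comparison between such duplexes shows where the transfected cells differ although the target is shared.

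RNA was hybridized to Affymetrix Human Gene 1.0 ST arrays, and all values below are on the log2 scale of the Robust Multichip Average (RMA). A difference is the mean of the 3 #2 arrays minus the mean of the 3 #1 arrays, so that a value of -1 is 2-fold lower with #2. The medians of the 6 arrays lay between 6.06 and 6.18. The 9 luminal markers examined were well above these medians in all 6 arrays, from ESR1 at 9.46 to 9.80 up to KRT8 at 12.61 to 12.73. Replicate 2 of #1 stood apart from the other #1 arrays on the second principal component of all 24 arrays, at -17.5 against 8.03 and -4.50, together with 1 array each of 3 other groups, and results are given without it where they change.

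PREX1 was below the control level with both duplexes, and the duplexes could not be separated by it. Its values were 9.09, 8.91 and 8.98 with #1, and 9.00, 8.97 and 9.03 with #2. Parental cells had 10.63, 10.59 and 10.59, and NTC cells 10.52, 10.36 and 10.38, so every RNAi array was below every control array, as the labels require. The difference between the duplexes was 0.01 (SE 0.07, 95% confidence interval -0.15 to 0.16, limma adjusted p = 0.984, exact two-sided permutation p = 0.9 with 3 against 3 arrays, for which the smallest possible p is 0.1). With HRG the difference was 0.20 (SE 0.07, limma adjusted p = 0.148).

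Of the 21042 probe sets tested, 31 differed between the duplexes without HRG by more than 1.5-fold at an adjusted p under 0.05 (limma), or 0.147%. With #2, 11 were higher (0.0523%) and 20 were lower (0.095%), and all 31 carry a single gene symbol. In size, 4 probe sets were over 2-fold lower with #2 (LUM, ATP13A2, AK4 and RPF1) and 1 was over 2-fold higher (OLR1). At the same adjusted p and with any fold, 213 were higher with #2 (1.01%) and 283 lower (1.34%). Over all probe sets the median difference was -0.00 and the median size of a difference 0.069. In all 31 called probe sets the 3 #2 arrays lay on 1 side of the 3 #1 arrays, which also held for 18.1% of all probe sets tested. Without replicate 2 of #1, 7 probe sets were called higher and 27 lower, and 26 of the 31 were still called, whereas without replicate 1 of #1 the calls higher were 19. With array medians subtracted, 14 were higher and 16 lower. With 3 arrays in each group the spread is known only roughly, and differences of dim probe sets are compressed by RMA.

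**Figure D1:**
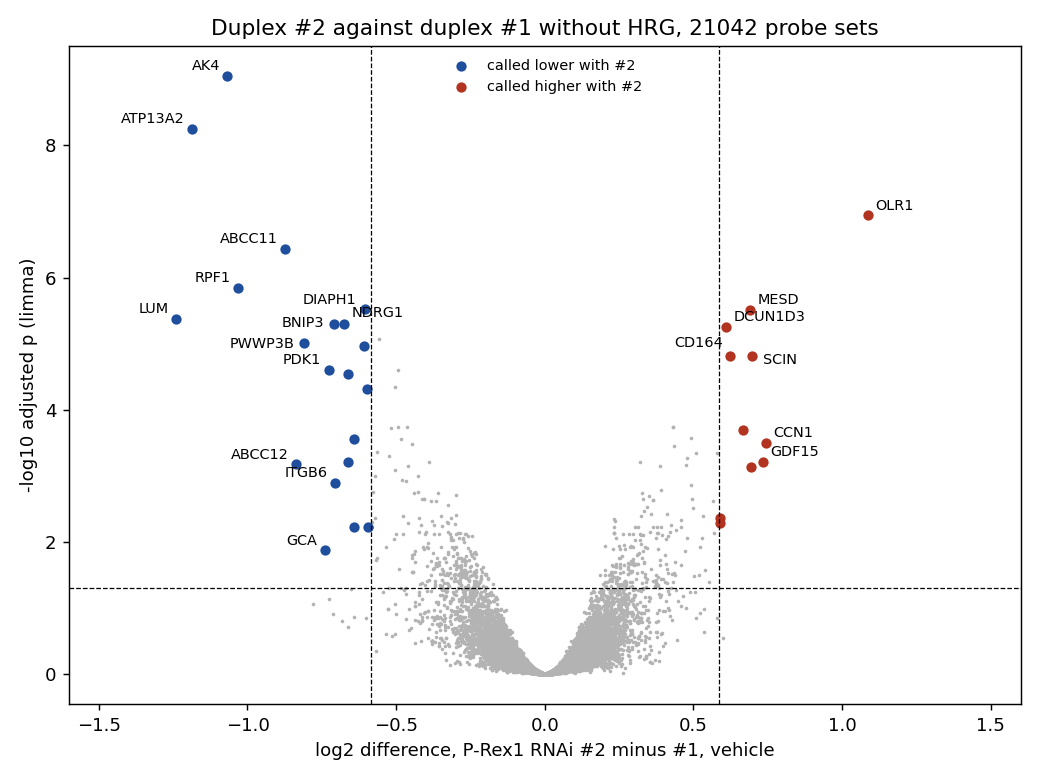
Each point is 1 of 21042 probe sets, with its log2 difference (#2 minus #1, vehicle) on the horizontal axis and the -log10 adjusted p of limma on the vertical axis, and dashed lines mark the 1.5-fold and adjusted p thresholds. The 20 called lower with #2 (blue) reach a difference of -1.24 at LUM, and the 11 called higher (red) reach 1.09 at OLR1.

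The largest difference was in LUM, which encodes lumican, a small leucine-rich proteoglycan that binds collagen fibrils. LUM was 6.44, 6.10 and 6.64 with #1 and 5.24, 5.17 and 5.07 with #2. The #1 arrays were at the level of the parental and NTC cells, whose means were 6.49 (SD 0.17) and 6.40 (SD 0.04), and all #2 arrays were below them. The difference was -1.24 (SE 0.12, limma adjusted p = 4.2e-06), or 2.36-fold lower with #2. LUM is also 1 of 13 fibroblast markers measured, of which it alone passed the test in either direction without HRG, and the median difference of the 13 was -0.07. The summed log2 level of the 13 markers was 67.9 to 70.5 in the #1 arrays and 66.5 to 68.2 in the #2 arrays. This sum includes LUM itself, whose difference of -1.24 is part of the shift. In the dimmest 25% of probe sets were 4 of the 13. In a bulk sample fewer cells with a transcript and less of it per cell cannot be told apart, and the part of other cells in the LUM difference was not tested.

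ATP13A2, a P-type ATPase of lysosomes that exports polyamines, was 8.34, 8.29 and 8.28 with #1 and 7.06, 7.0 and 7.29 with #2. The groups were far apart relative to their spread, with a difference of -1.19 (SE 0.08, limma adjusted p = 5.61e-09), or 2.28-fold, and the parental and NTC means of 8.47 and 8.30 were close to #1. It was the only called gene among the 39 measured genes of lysosomes, autophagy and P-type transport ATPases, whose median difference was 0.02.

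AK4, an adenylate kinase of the mitochondrial matrix, was 9.51, 9.49 and 9.57 with #1 and 8.33, 8.47 and 8.56 with #2. The difference was -1.07 (SE 0.06, limma adjusted p = 8.89e-10), and the parental and NTC means of 9.37 and 9.53 were again on the side of #1. A dimmer AK4 probe set had a difference of -0.27 (SE 0.15) that did not pass the test (limma adjusted p = 0.424). The probe sets of this gene thus disagree in size and in the call, and which of them measures AK4 better was not settled.

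RPF1, a nucleolar protein required to mature the large ribosomal subunit, was 9.67, 9.53 and 9.70 with #1 and 8.72, 8.48 and 8.60 with #2. All #2 arrays were below all 6 control arrays, whose group means were 9.60 and 9.68. The difference was -1.03 (SE 0.10, limma adjusted p = 1.43e-06).

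Genes of glycolysis and of the response to low oxygen were measured as 1 list. Cells that lack oxygen stabilize hypoxia-inducible factors, which switch on glucose uptake, glycolysis, and genes that hold back mitochondrial respiration or remove mitochondria. Of 31 measured genes of glycolysis and hypoxia, 3 were called lower with #2 (PDK1, BNIP3 and NDRG1) and none higher. At an adjusted p under 0.05 with any fold, 11 of the 31 were lower and none higher, the other 20 did not pass, and 28 of the 31 had a negative difference. Of all probe sets tested, 0.095% were called lower, 1.34% were lower at that adjusted p with any fold, and 10717 of 21042 had a negative difference. The list's median difference was -0.20 against -0.00 over all probe sets, and -0.17 with array medians subtracted. Members overlap in function, so that they are not independent of each other.

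PDK1, the kinase that turns off pyruvate dehydrogenase, was 8.91, 8.87 and 9.10 with #1 and 8.31, 8.09 and 8.29 with #2. The difference was -0.73 (SE 0.08, limma adjusted p = 2.46e-05), and the parental and NTC means of 8.69 and 8.92 lay between the duplex means. BNIP3, a mitochondrial receptor for mitophagy, was 10.98, 11.06 and 11.22 with #1 and 10.40, 10.41 and 10.31 with #2. For BNIP3 the #1 arrays were above the NTC mean of 10.94 and the #2 arrays below the parental mean of 10.78, and the difference was -0.71 (SE 0.07, limma adjusted p = 4.98e-06). NDRG1, a stress-induced gene raised by low oxygen, was 8.92, 9.02 and 9.06 with #1 and 8.29, 8.30 and 8.39 with #2. Its difference was -0.67 (SE 0.07, limma adjusted p = 5.03e-06), and the parental and NTC means of 8.95 and 9.03 matched #1.

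The other members of the list that were lower with #2 at an adjusted p under 0.05 remained under the 1.5-fold threshold. PFKP, a phosphofructokinase, was 9.14, 9.16 and 9.15 with #1 and 8.61, 8.64 and 8.87 with #2, with a difference of -0.45. SLC2A1, the basal glucose transporter, was 9.25, 9.50 and 9.46 with #1 and 8.84, 8.97 and 9.18 with #2, with a difference of -0.41. The histone demethylase KDM3A, a target of hypoxia-inducible factors, was 8.06, 8.03 and 8.20 with #1 and 7.80, 7.72 and 7.64 with #2, with a difference of -0.38. In these 3 genes the arrays of the duplexes did not overlap, which also held for 18.1% of all probe sets tested. It held for ALDOA and PGK1 of this list as well, which did not pass the test. The glycolytic enzymes GPI (-0.33), TPI1 (-0.33), HK2 (-0.31) and PKM (-0.20) and the collagen prolyl hydroxylase subunit P4HA2 (-0.30) completed the 11. Relative to the mean of the control arrays without HRG, TPI1 was at 0.23 with #1 and -0.10 with #2. GPI was at 0.19 with #1 and -0.14 with #2, so #1 was farther for these enzymes. For PFKP, SLC2A1, KDM3A, HK2, PKM and P4HA2, #2 was farther. Their values were -0.05 (P4HA2) to 0.13 (PFKP) with #1 and -0.13 (PKM) to -0.35 (P4HA2) with #2. These distances were not tested. HIF1A itself, which encodes the oxygen-regulated subunit of hypoxia-inducible factor 1, had a difference of 0.02 (SE 0.06). The abundant enzymes GAPDH (-0.02), ENO1 (0.03), ALDOA (-0.06) and PGK1 (-0.10) did not pass the test.

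**Figure D2:**
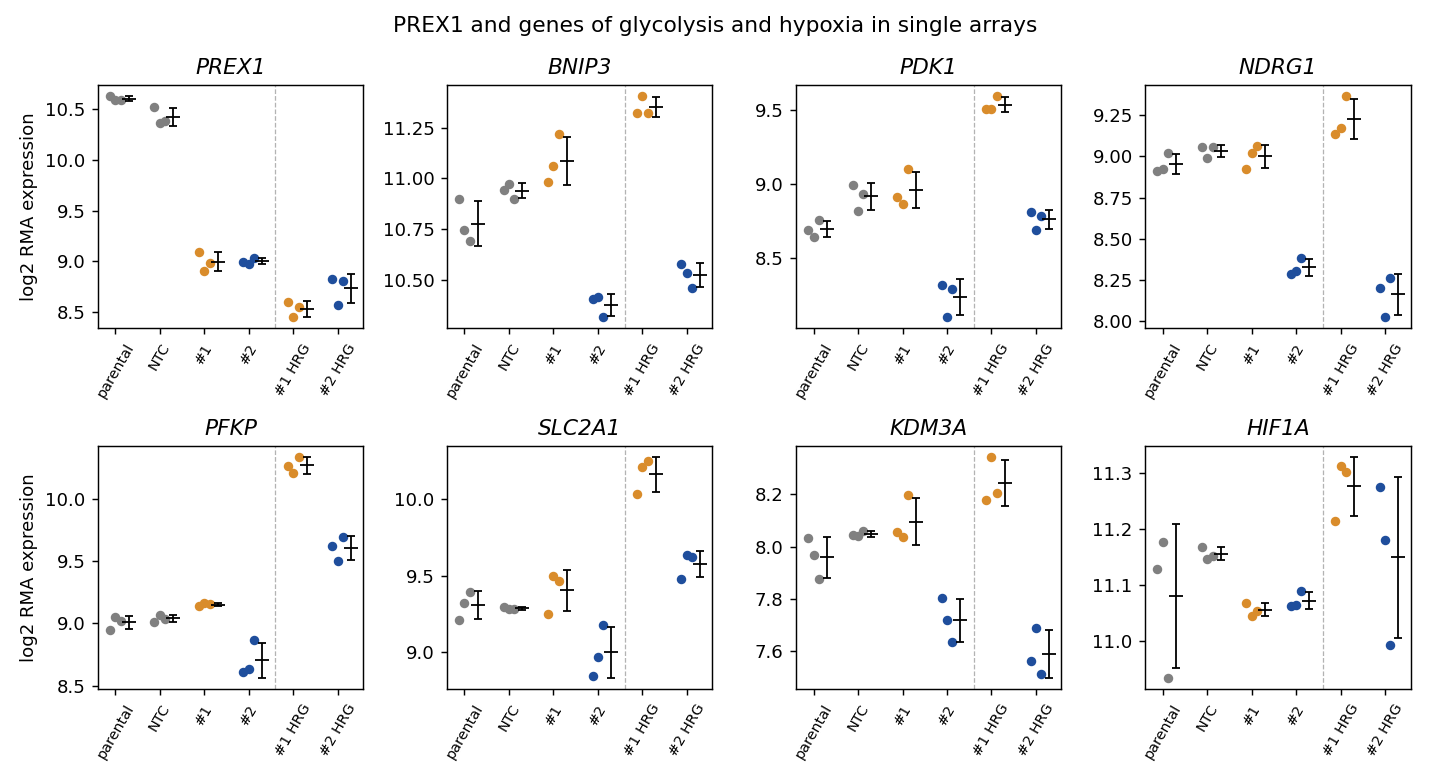
Log2 RMA expression of PREX1 and of 7 genes of glycolysis and hypoxia in single arrays (points) of parental, NTC, #1 and #2 cells with vehicle and, right of the dashed line, of #1 and #2 cells with HRG, with the mean and SD of 3 arrays beside them and a vertical axis that differs between panels. PREX1 overlaps between the duplexes, the #2 points of BNIP3, PDK1, NDRG1, PFKP, SLC2A1 and KDM3A lie below the #1 points in both treatments, and HIF1A has a difference of 0.02 without HRG.

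Hypoxia-inducible factors bind DNA at a short core, spelled ACGTG or GCGTG, which read CACGT or CACGC on the other strand. Both spellings were chosen after the values were seen, and they were searched on both strands of the RefSeq promoter windows, which run from 250 bases before to 50 bases after an annotated start (GRCh38.p14). The palindrome CACGTG counts as a match on each strand. Among all genes with a window, 52.4% held at least 1 match in any of their windows. Among the genes called lower with #2 a match was in 9 of the 14 with a window, among those called higher in 5 of 7, and among the measured glycolysis and hypoxia genes in 25 of 27. Of the genes of this list lower with #2 at an adjusted p under 0.05, 9 of 10 with a window held a match. Their share of 90% was close to the 92.6% of the whole list, so a match did not set the lower members apart. The base composition of the windows was not taken into account, and a match in a window is a description of its letters and not evidence of binding. Windows of 3 genes of the list that were lower with #2 are shown 5′ to 3′ on the strand of the gene, with matches in capitals, to set many matches beside few. They are BNIP3 (chr10:131981874-131982173, minus strand, 6 matches, of which 2 share the palindrome), the second of 2 windows of PDK1 (chr2:172555840-172556139, plus strand, 2 matches) and the first of 2 windows of KDM3A (chr2:86441121-86441420, plus strand, 1 match). The PDK1 window that is not shown held 0 matches, and the KDM3A window that is not shown held 1.
BNIP3: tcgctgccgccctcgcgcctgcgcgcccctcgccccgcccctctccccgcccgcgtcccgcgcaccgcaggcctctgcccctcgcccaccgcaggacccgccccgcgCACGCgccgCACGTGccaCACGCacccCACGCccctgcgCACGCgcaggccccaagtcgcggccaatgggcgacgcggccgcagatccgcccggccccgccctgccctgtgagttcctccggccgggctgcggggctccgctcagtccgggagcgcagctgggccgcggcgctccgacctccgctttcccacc
PDK1: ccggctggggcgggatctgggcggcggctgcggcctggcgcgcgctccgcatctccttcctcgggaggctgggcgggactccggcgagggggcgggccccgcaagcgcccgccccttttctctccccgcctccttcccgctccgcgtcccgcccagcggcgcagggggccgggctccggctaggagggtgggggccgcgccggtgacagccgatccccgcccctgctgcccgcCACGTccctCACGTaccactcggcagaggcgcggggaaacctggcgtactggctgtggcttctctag
KDM3A: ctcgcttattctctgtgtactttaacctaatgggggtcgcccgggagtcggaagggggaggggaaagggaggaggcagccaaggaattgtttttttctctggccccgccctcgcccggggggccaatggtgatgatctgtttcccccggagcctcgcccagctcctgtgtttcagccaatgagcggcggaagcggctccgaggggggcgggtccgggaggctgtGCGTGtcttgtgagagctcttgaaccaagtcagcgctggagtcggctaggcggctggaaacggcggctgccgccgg

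The ATP-binding cassette transporters ABCC11 and ABCC12, which export lipophilic anions or are related to such exporters, were both lower with #2. ABCC11 was 10.01, 10.20 and 10.04 with #1 and 9.15, 9.11 and 9.37 with #2, a difference of -0.87 (SE 0.07, limma adjusted p = 3.63e-07). ABCC12 was 6.84, 7.11 and 6.69 with #1 and 6.05, 6.07 and 6.02 with #2, a difference of -0.84 (SE 0.13, limma adjusted p = 0.00066). These genes are neighbours on chromosome 16 and related in sequence, so their probe sets may not be independent measurements.

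Further genes called lower with #2 follow. ITGB6, the beta subunit of an epithelial integrin, was 5.82, 5.63 and 5.98 with #1 and 5.11, 4.88 and 5.33 with #2, a difference of -0.71 (SE 0.11, limma adjusted p = 0.00127). It was the only called gene of 34 integrins, cadherins and junction genes (median -0.03), in which ITGB8 (-0.41) was lower and CEACAM6 (0.38) and CLDN1 (0.20) were higher at an adjusted p under 0.05. CEMIP2, a membrane protein linked to the breakdown of hyaluronan, was 7.88, 7.63 and 7.95 with #1 and 7.08, 7.22 and 7.17 with #2, a difference of -0.66. TIMP2, an inhibitor of matrix metalloproteinases, was 10.02, 9.93 and 10.17 with #1 and 9.40, 9.34 and 9.55 with #2, a difference of -0.61. TIMP2 was the only one of 37 matrix proteases and inhibitors to pass without HRG (median -0.06). DIAPH1, a formin that extends actin filaments, was 9.28, 9.21 and 9.25 with #1 and 8.68, 8.58 and 8.68 with #2, a difference of -0.60. NKAIN1, a partner of the sodium pump, was 7.89, 7.95 and 8.03 with #1 and 7.45, 7.24 and 7.21 with #2, a difference of -0.66. In each of these genes the 2 sets of arrays were fully separated, as in 18.1% of all probe sets tested.

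The other genes called lower were PWWP3B, which holds a chromatin-binding PWWP domain (-0.81), the calcium-binding protein GCA (-0.74), the zinc finger gene JAZF1 (-0.64), MTFMT, which formylates the mitochondrial initiator transfer RNA (-0.64), RPIA, an isomerase of the pentose phosphate pathway (-0.60), and PLEKHH2 (-0.60). GCA had the largest standard error of the 31, with 8.30, 7.83 and 8.26 with #1 and 7.63, 7.36 and 7.18 with #2 (SE 0.16, limma adjusted p = 0.0133). Without replicate 1 or without replicate 3 of #1, and without replicate 2 or without replicate 3 of #2, GCA did not pass the test, and its limma adjusted p was then between 0.0579 and 0.0709. PLEKHH2 and JAZF1 also lost the test without replicate 2 of #2 (limma adjusted p = 0.058 and 0.0507). MTFMT, DIAPH1, RPIA and PLEKHH2 lie outside the rule for named genes and were named after their values were seen.

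Of the genes higher with #2, OLR1, a scavenger receptor for oxidized low-density lipoprotein, had the largest difference. OLR1 was 8.44, 8.23 and 8.42 with #1 and 9.59, 9.49 and 9.26 with #2, and the parental and NTC means of 8.59 and 8.45 were near #1. The difference was 1.09 (SE 0.09, limma adjusted p = 1.15e-07), or 2.12-fold higher. SCIN, an actin-severing protein, had the same arrangement, with 6.97, 6.84 and 6.93 with #1, 7.69, 7.61 and 7.53 with #2, control means of 6.93 and 6.98, and a difference of 0.70 (SE 0.08, limma adjusted p = 1.56e-05). The membrane mucin MUC15 was dim, at 4.80, 4.72 and 4.83 with #1 and 5.55, 5.40 and 5.40 with #2, a difference of 0.67 (SE 0.09). CLDN16, a claudin of tight junctions, was 6.19, 5.87 and 5.99 with #1 and 6.86, 6.54 and 6.41 with #2, a difference of 0.59 (SE 0.11).

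CCN1 and GDF15 are secreted proteins whose genes respond to stress and growth signals. CCN1, a matricellular protein and target of YAP and TEAD factors, was 8.01, 7.73 and 8.14 with #1 and 8.83, 8.65 and 8.63 with #2, a difference of 0.74 (SE 0.11, limma adjusted p = 0.000313). The control means of 8.33 and 8.20 lay between the duplexes. GDF15, a cytokine induced by p53 and by the integrated stress response, was 6.96, 6.91 and 7.07 with #1 and 7.71, 7.78 and 7.65 with #2, a difference of 0.73 (SE 0.11, limma adjusted p = 0.000612). Control means of 7.47 and 7.44 also placed GDF15 between the duplexes, closer to #2.

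In 3 further genes #2 was at the control level and #1 was below it. MESD, a chaperone of Wnt co-receptors in the endoplasmic reticulum, was 8.09, 7.92 and 7.80 with #1 and 8.70, 8.60 and 8.59 with #2, against control means of 8.63 and 8.62. CD164, a sialomucin of cell adhesion, was 11.35, 11.07 and 11.24 with #1 and 11.83, 11.86 and 11.84 with #2, against 11.84 and 11.93. DCUN1D3, a factor of cullin neddylation, was 7.92, 7.77 and 7.78 with #1 and 8.49, 8.34 and 8.47 with #2, against 8.31 and 8.40. The differences were 0.69, 0.62 and 0.61, with limma adjusted p of 3.04e-06, 1.53e-05 and 5.49e-06. L3MBTL3, a reader of methylated lysine (0.69), and SH3BGR (0.59) were also higher with #2, and their #1 values included a low replicate 2, at 8.13 and 7.05. Without replicate 2 of #1, the differences of L3MBTL3, SH3BGR, CD164 and CLDN16 were 0.56, 0.46, 0.55 and 0.52 and that of DCUN1D3 was 0.58, so these 5 genes fell under the 1.5-fold threshold while their adjusted p stayed under 0.05.

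Relative to the mean of the 6 control arrays without HRG, #2 was the farther duplex for 19 of the 20 genes called lower and #1 for NKAIN1 alone. For the 11 called higher, #2 was farther for 5 (OLR1, SCIN, MUC15, CCN1 and CLDN16) and #1 for 6 (MESD, CD164, DCUN1D3, GDF15, L3MBTL3 and SH3BGR). These distances use the same RNAi arrays that chose the genes and are descriptions with no test. For example, LUM was at -1.29 relative to the controls with #2 and at -0.05 with #1, whereas MESD was at 0.01 with #2 and -0.68 with #1.

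**Figure D3:**
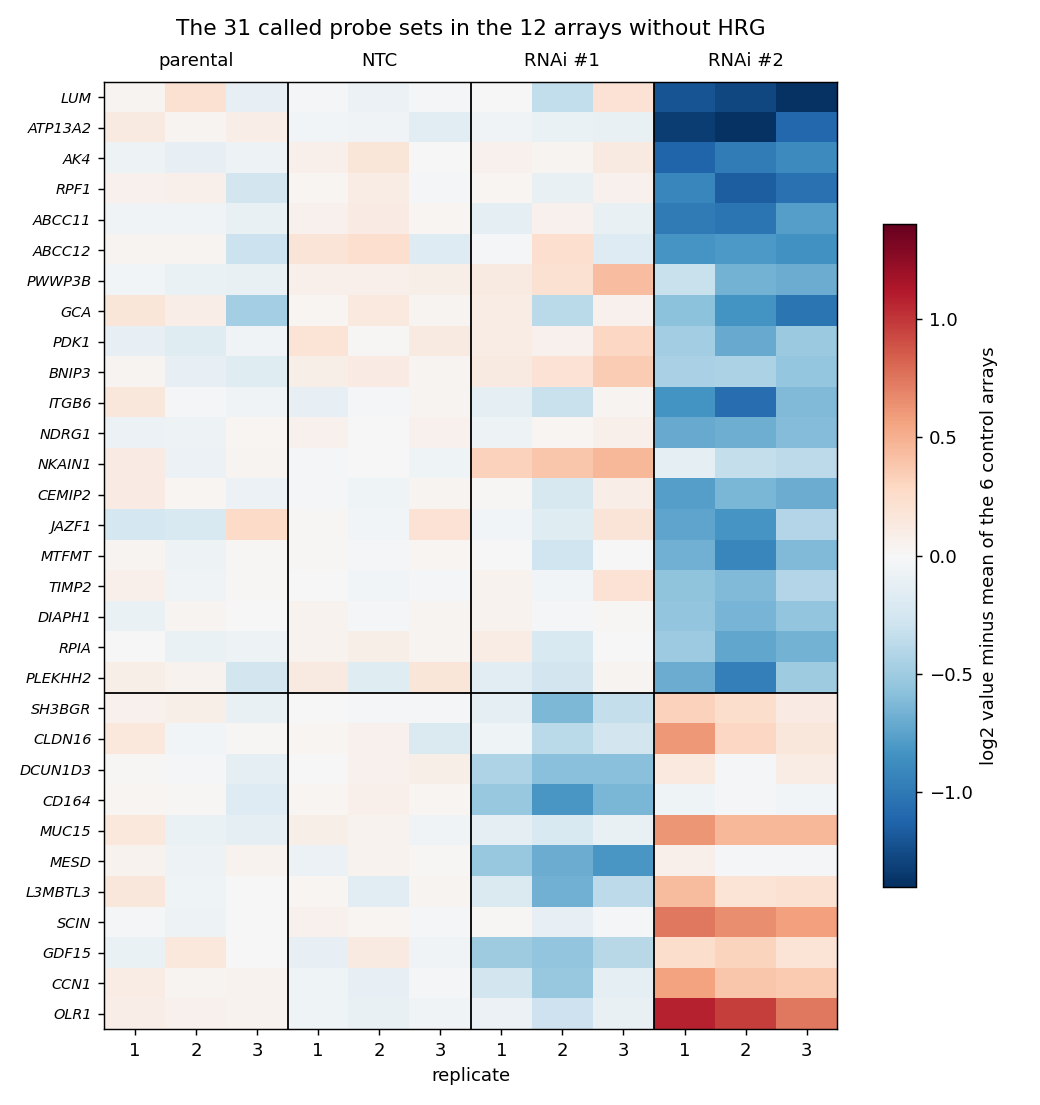
Rows are the 31 called probe sets, ordered by their log2 difference, and columns are the 12 arrays without HRG, with colour giving the log2 value minus the mean of the 6 control arrays. The #2 columns are blue for the upper 20 genes, from LUM (-1.29 on average) on. In the lower 11 genes #2 is red, as for OLR1 (0.93), #1 is blue, as for MESD (-0.68), or both, as for CCN1 (0.44 with #2 and -0.30 with #1).

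The same comparison in the 6 arrays with HRG was used to ask whether the differences recur. Those arrays gave no part of the differences without HRG, but they shared in the estimate of the spread by which the genes were called. All 31 differences had the same sign with HRG. All 20 genes lower with #2 passed in the same direction at an adjusted p under 0.05 (limma, background 3.61% of probe sets lower), and 10 of the 11 higher genes did so (background 1.25% higher). The exception was MUC15, with a difference of 0.30 and an adjusted p of 0.0631 (limma). The 3 HRG arrays of #2 lay on the same side of those of #1 for all 31, against 19.6% of all probe sets that were separated in either direction. In separate fits, the 6 arrays without HRG alone called 23 probe sets, and in the 6 HRG arrays alone all 23 had the same sign and 20 passed in that direction at an adjusted p under 0.05 (limma, background 1.39% in either direction). With the 1.5-fold threshold as well, which 0.413% of probe sets passed in either direction, 17 of the 20 lower genes (background 0.39%) and 1 of the 11 higher genes, OLR1 at 0.80 (background 0.0238%), were called.

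In size, the lower genes had a median difference of -0.71 without and -0.83 with HRG, and 16 of the 20 were larger in size with HRG. The higher genes had a median of 0.69 without and 0.48 with HRG, and 0 of the 11 were larger with HRG. All these genes were chosen by a fold threshold without HRG, and such a choice by itself favours smaller values with HRG. LUM was 7.50, 7.61 and 7.68 with #1 and HRG and 6.22, 6.11 and 6.10 with #2 and HRG, a difference of -1.45. NDRG1 changed from -0.67 to -1.06, and ABCC11 from -0.87 to -0.42. A direct test of such shifts, the interaction of duplex and HRG, passed for 0 of the 31 genes in limma, with the smallest adjusted p of 0.163 at ABCC11. Over all probe sets tested the interaction passed for 13, all lower (0.0618%), and for 25 with the replicate number as a block. It passed for 5 without replicate 2 of #1, for 6 without replicate 1 of #2 and for 8 without replicate 3 of #2. With an HRG array left out, it passed for 1 probe set, MMP1, without replicate 3 of #1, for 5 without replicate 2 of #1 and for 6 without replicate 2 of #2.

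**Figure D4:**
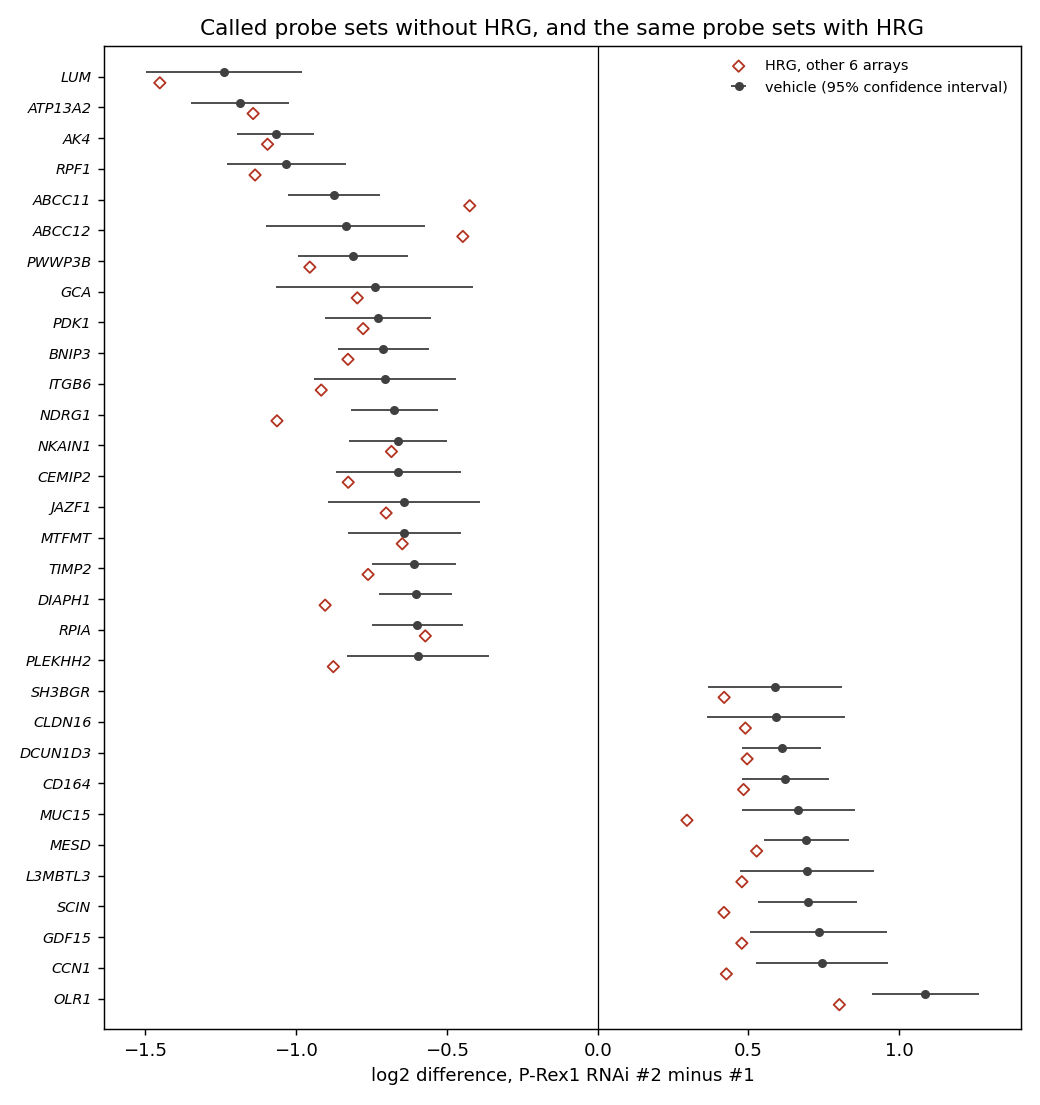
For each of the 31 called probe sets, the log2 difference (#2 minus #1) without HRG is shown as a filled point with its 95% confidence interval, and the difference in the 6 arrays with HRG as an open diamond. All 31 diamonds lie on the same side of 0 as the points, those of the lower genes at a median of -0.83 and those of the higher genes at a median of 0.48.

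Part of the called genes also respond to HRG. In parental cells 8 of the 31 were called for HRG, against 5.27% of all probe sets. HRG raised 7 of the genes lower with #2, among them ITGB6 by a log2 value of 2.71, PLEKHH2 by 1.80, JAZF1 by 1.54 and LUM by 0.85, and 1 of the genes higher with #2, CCN1, by 0.96. With HRG, ITGB6 reached 8.10, 8.28 and 8.51 with #1 and 7.43, 7.26 and 7.45 with #2.

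Genes of pathways that P-Rex1 belongs to are given next, where 2.36% of all probe sets passed an adjusted p under 0.05 in either direction. Of 42 measured Rac exchange factors, Rac GTPases and effectors, none was called, and 3 exchange factors were lower with #2 at an adjusted p under 0.05 (limma). These were DOCK10 (-0.58, just outside the 1.5-fold threshold), VAV2 (-0.50) and TRIO (-0.33), and the median of the list was -0.05. Of 22 genes of ErbB receptors, ligands and feedback, only LRIG1, a negative regulator of these receptors, passed, at 0.33 (median -0.01). None of 42 ERK feedback and immediate early genes passed (median -0.03). Of 32 actin genes controlled by SRF and MRTF, TPM1 (0.29) and MYL9 (0.28) were higher and TAGLN2 (-0.23) was lower at an adjusted p under 0.05, with a median of 0.02. Of 25 YAP and TEAD targets, CCN1 was called and CRIM1 (0.26) passed without the fold threshold, with a median of 0.05.

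Genes that sense or process transfected RNA did not pass the test in either direction. None of 39 interferon-stimulated genes and RNA sensors passed, with a median of 0.00 and a range from OAS3 (-0.29) to MX2 (0.27). None of 18 genes of the RNA interference machinery passed, from AGO3 (-0.25) to DDX20 (0.19), and none of 16 heat shock genes or 38 NF-kappa B and TNF targets did. Of 35 genes of the unfolded protein and amino acid response, EDEM1, a factor of protein disposal, was lower (-0.33), and the median was 0.08. These counts describe what this number of arrays could separate and do not show that the levels were equal.

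In metabolic and proliferation genes the counts are set against all probe sets tested, of which 1.34% were lower and 1.01% higher at an adjusted p under 0.05, 10717 of 21042 had a negative difference and 10325 a positive one. Of 27 genes of sterol and fatty acid synthesis, 26 had a negative difference, none was called, and 6 were lower with #2 at an adjusted p under 0.05 (limma), with a median of -0.17 (-0.15 with array medians subtracted). HMGCS1, an early enzyme of cholesterol synthesis, had the largest difference, -0.44 (SE 0.11), followed by LSS (-0.39), ACSS2 (-0.39), SQLE (-0.30), FASN (-0.27) and ACACA (-0.21). Of 29 mitosis genes, 28 had a positive difference and the median was 0.15 (0.17 with array medians subtracted), yet none passed, with the largest value at HMMR (0.37). The mitosis medians of single arrays were close, at 9.89 to 10.00 with #1 and 10.02 to 10.16 with #2. Members of the sterol and mitosis lists overlap in function, so that they are not independent of each other. Of 39 measured G1/S and DNA replication genes, TK1 (-0.36), E2F7 (-0.27) and CDC45 (-0.27) were lower, and the median was -0.00. Of 37 ribosomal protein genes, RPL10A (0.34), RPS7 (0.24) and RPL7A (0.22) were higher and the median was 0.10, while none of 28 genes of oxidative phosphorylation passed (median 0.07).

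**Figure D5:**
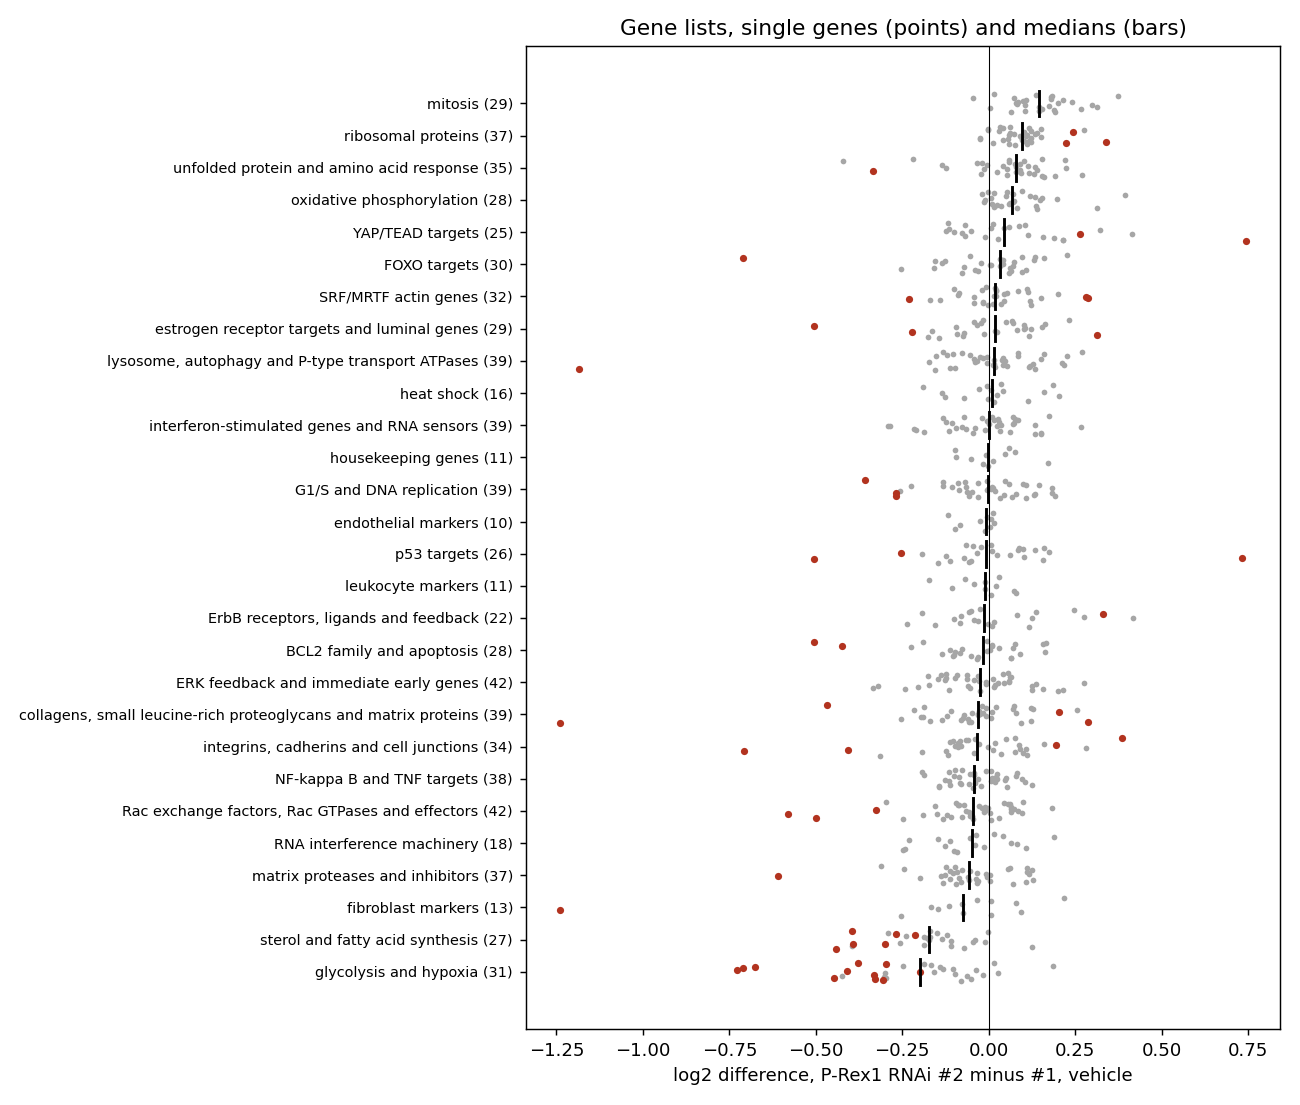
Each point is 1 measured gene of the list named at the left, with the number measured in brackets, at its log2 difference (#2 minus #1, vehicle), in red where the adjusted p is under 0.05, and the black bars are list medians. Glycolysis and hypoxia (median -0.20) and sterol and fatty acid synthesis (median -0.17) lie farthest to the left, and mitosis (median 0.15) farthest to the right without a gene that passed.

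Counts in the remaining lists are to be read against the same 2.36% of all probe sets. Of 26 p53 targets, GDF15 was called higher, while the death receptor gene TNFRSF10B (-0.50) and the DNA repair gene DDB2 (-0.25) were lower at an adjusted p under 0.05 (median -0.01). Of 28 genes of the BCL2 family and apoptosis, APAF1 (-0.42) and TNFRSF10B were lower (median -0.02). Of 30 FOXO targets only BNIP3 passed (median 0.03). Of 29 estrogen receptor targets and luminal genes, TFF3 (0.31) was higher, and NRIP1 (-0.51) and MYB (-0.22) were lower (median 0.02). Of 39 collagens, small leucine-rich proteoglycans and matrix proteins, LUM was called, VCAN (-0.47) was lower, and FMOD (0.29) and LAMB1 (0.20) were higher at an adjusted p under 0.05 (median -0.03). None of 11 leukocyte markers, 10 endothelial markers and 11 housekeeping genes passed, with medians of -0.01, -0.01 and -0.00. Members nearest to the fold threshold were SH3BGR (0.59), CLDN16 (0.59) and PLEKHH2 (-0.60) inside it, and DOCK10 (-0.58), TUBA1A (-0.58) and LHFPL5 (0.58) outside it.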

How the data were processed

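Total RNA of T-47D cells was hybridized to 24 arrays (Affymetrix Human Gene 1.0 ST), 8 groups of 3 biological replicates. The authors normalized the arrays by RMA in simpleaffy (version not given in the sources used) and deposited 1 log2 expression value per array for 28536 probe sets. Array medians lay between 6.04 and 6.18. As arrays hold no counts, precision depends on how many there are. Columns not used numbered 0.

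The platform annotation gave 1 symbol for 19292 probe sets, several for 1750 and none for 7494 here, and no genome build. The test covered the 21042 with any symbol, and a gene is named where its probe set has 1. A limma 3.58.1 model (R 4.3.3, with statmod 1.5.0) of all 24 arrays had a mean for each group, and p-values were adjusted over all probe sets tested (Benjamini-Hochberg). Called probe sets are those over 1.5-fold at an adjusted p under 0.05. The study's methods name Rank Products, which was run as an alternative, because limma gives standard errors over several groups. The limma p-values set a difference against the spread between biological replicates, which was estimated from all 24 arrays. PREX1 was also compared by an exact permutation test.

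Same-numbered arrays of #1 and #2 deviated together (correlation of deviations from the group means 0.461, 0.41 and 0.101). Replicate 2 of #1 and replicate 3 of #2 had 0.115, above the third pair. Every same-number correlation was over 0.1, but with the third so low, whether the numbers pair the arrays was not settled. The main fit left the replicate number out, and the replicate block was an alternative. With the block, 27 probe sets were called lower against 20 in the main fit, and 25 interactions passed against 13.

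The groups compared and the gene lists were chosen with earlier results of these data known, and no list result is independent support. A gene in a list was read from its brightest single-symbol probe set, and 778 of 856 list genes had one. The lists cover the pathways and marker groups given in the results and 5 groups found by symbol (small nucleolar RNAs, microRNA precursors, histones, ZNF zinc finger genes and olfactory receptors). Named genes were PREX1, the 15 largest falls and up to 15 rises among called probe sets whose arrays did not overlap, and of each list the called members up to 3 or the largest difference. The last part was not kept in every list. Left out were, among others, HBEGF (0.42, ErbB list), VLDLR (-0.42, unfolded protein list) and SPRY2 (-0.33, ERK list), which did not pass the test. Further members were named after their values were seen.

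Promoter windows came from RefSeq (GRCh38.p14). Other alternatives were 6 or 12 arrays only, leaving out dim probe sets (the lowest 25%), testing all probe sets, a mean-variance trend with a robust prior, array weights, subtracted array medians, other thresholds and each array left out in turn (those of other groups added after seeing the data). Plots were drawn with Python 3.11.15 and matplotlib 3.10.9.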

Additional observations from a re-analysis of the deposited data

Results flagged for a closer look

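The difference between the duplexes was not the same with and without HRG for 13 probe sets of 12 genes, by the interaction term of duplex and HRG in limma (adjusted p under 0.05, and an interaction over 1.5-fold). None is among the genes called without HRG. In each of them HRG raised the gene in parental cells, by log2 values from 0.80 (PRG4) to 3.65 (SYTL2), and the interaction was negative.

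The interaction, on the log2 scale, was -1.27 for the collagenase MMP1, whose duplex difference was 0.07 without HRG and -1.20 with it. It was -1.23 for the microtubule-associated protein MAP1B (-0.19 and -1.42), -1.0 for SYTL2, a synaptotagmin-like trafficking protein (0.02 and -0.98), and -0.96 for both probe sets of the membrane protease TMPRSS11E, which share a symbol and may not be independent. It was -0.86 for PRG4, a lubricating proteoglycan (-0.42 and -1.28), and -0.84 for annexin ANXA1 (-0.04 and -0.88). For ALDH1A3, a retinaldehyde dehydrogenase, it was -0.83, and the duplex difference was positive without HRG (0.50) and negative with it (-0.33). It was -0.75 for LMO7, -0.74 for calponin CNN1, -0.74 for the protease inhibitor SERPINB8, -0.71 for the exchange factor CYTH3 and -0.60 for OPN3. The limma adjusted p lay between 0.00153 (MMP1) and 0.0486 (CYTH3). Across the 12 arrays of both duplexes left out in turn, all 13 interactions stayed negative. MMP1 passed each time, whereas without replicate 3 of #1 with HRG it was the only probe set that passed. Without HRG, however, the MMP1 means were 3.89 with #1 and 3.97 with #2, under the lowest 25% quantile of the arrays, 4.98. The means of PRG4 and of both TMPRSS11E probe sets without HRG were also under it with both duplexes. RMA compresses differences of such dim probe sets, and the part of this in their interactions was not tested.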

How the results depend on the processing

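Against 11 probe sets called higher and 20 lower, 13 interactions and 30 of 31 called probe sets that passed with HRG, counts moved by more than 1.5 times as follows. With the replicate block 25 interactions passed. The block changed no other call of the 31, with 11 higher and 27 lower called, which share all 31. Array weights gave 32 lower. No fold threshold gave 213 higher and 283 lower, of which 244 passed with HRG, and a 2-fold threshold gave 1 higher, 4 lower, 2 interactions and 5 that passed with HRG. An adjusted p under 0.01 left 4 interactions. Subtracting array medians gave 14 higher and 16 lower, which changes the split, and 21 interactions. Leaving out each of the 24 arrays in turn, of which the 18 other than the vehicle arrays of #1 and #2 were added after seeing the data, gave 7 to 19 higher, 14 to 28 lower, 1 to 17 interactions, 23 to 35 that passed with HRG and a PREX1 difference of -0.04 to 0.06. Calls higher numbered 19 without replicate 1 of #1 and 7 without replicate 2 of #1, and interactions 5 without replicate 2 of #1, 6 without replicate 1 of #2 and 8 without replicate 3 of #2. Among HRG arrays, interactions numbered 5 without replicate 2 of #1, 1 without replicate 3 of #1 and 6 without replicate 2 of #2. Without the 4 arrays that stand apart on the second principal component, an alternative chosen after seeing the data, 7 were higher, 28 lower and 6 interactions passed. Rank Products called 12 higher and 28 lower, with all 31 shared. Its p threshold was 0.005 with no adjustment for the number of probe sets, and the 1.5-fold threshold was kept. As the arrays and the fold threshold were those of the main calls, this sharing is not independent support. The 6 arrays alone called 23, all among the 31. The cause of these shifts was not tested. Of 1022 values of called genes under the alternatives, 977 kept their call, 45 lost it and 0 reversed. Of 1089 list medians, 1072 moved by less than the spread between replicates. Both tallies include the 18 arrays of other groups left out in turn. Leaving those out cannot change the differences or the list medians, and all 31 genes kept their call each time. All 45 losses fell under the other alternatives. Dim probe sets have little signal over background, which limits what their differences can show.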

Other observations

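Groups of genes found by their symbols are set against all probe sets tested without HRG, in which an adjusted p under 0.05 was reached by 1.01% with a rise and by 1.34% with a fall. Of 55 replication-dependent histone genes, 5 were higher with #2 at an adjusted p under 0.05 (limma) and none lower, with a median of 0.06. Of 192 small nucleolar and Cajal body RNAs 1 was lower (median 0.03), of 493 zinc finger genes of the ZNF family 2 were higher (median 0.01), of 358 olfactory receptor genes 1 was higher (median -0.02), and none of 189 microRNA precursors passed (median -0.05). None of the members of these 5 groups reached the fold threshold at that adjusted p.

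When all 28536 probe sets were tested, 10 without a gene symbol here were called between the duplexes without HRG. All 10 were lower with #2, and 0 of them were lower with #2 at an adjusted p under 0.05 with HRG (limma). The largest, probe set 7908861, was 7.10, 7.05 and 6.15 with #1 and 5.48, 5.55 and 5.44 with #2, against parental and NTC means of 5.90 and 5.82. Probe set 8085112 was 7.67, 7.55 and 7.17 with #1 and 6.46, 6.52 and 6.55 with #2, against 6.97 and 6.99. In both, #1 was above and #2 below the control means. The differences were -1.28 (SE 0.32, limma adjusted p = 0.0443) and -0.95 (SE 0.19, limma adjusted p = 0.0109). With HRG they were -0.15 and -0.38.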
